A study of Homo sapiens with 24 samples.

Results

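The genes described here are the 5 ligands and 5 receptors or co-receptors of the vascular endothelial growth factor (VEGF) system, VEGFA, VEGFB, VEGFC, VEGFD, PGF, FLT1, KDR, FLT4, NRP1 and NRP2. They were chosen by name, each matched to its Ensembl ID in the deposited count table, and all 10 had 1 row of the 65180 gene IDs. RNA was measured by poly(A) RNA-seq in HK-2, an immortalised human proximal tubular epithelial line, so every library stems from 1 cell line in culture. Cells were deprived of serum overnight and kept for 24 h under their treatment. The 6 groups were hypoxia (0.3% oxygen) with BAY 60-2770, hypoxia with solvent, normoxia with TGF-β1 (2 ng/mL) and BAY 60-2770, normoxia with TGF-β1 alone, normoxia with BAY 60-2770, and normoxia with solvent, with 3, 3, 5, 5, 3 and 5 libraries. BAY 60-2770, called BAY below, switches on soluble guanylate cyclase, which turns a nitric oxide signal into cyclic GMP. Its labelled concentration of 1 mM is far above the usual range in culture and may be a misprint of the unit, so every BAY response belongs to an uncertain dose. Replicates are described as biological with no word on how they were separated, and the p-values cover only the spread between these libraries, which may be technical.

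VEGF ligands are secreted dimers that bind receptor tyrosine kinases, mainly on endothelial cells. VEGFA acts through FLT1 (VEGFR1) and KDR (VEGFR2), VEGFB and placental growth factor (PGF) bind FLT1, and VEGFC and VEGFD act through FLT4 (VEGFR3), the receptor best known from lymphatic vessels. The neuropilins NRP1 and NRP2 are co-receptors without a kinase domain, which bind VEGF ligands and also class 3 semaphorins. In the kidney, VEGFA from podocytes and tubular epithelium is known to maintain glomerular and peritubular capillaries, and VEGFA is a classical target of the hypoxia-inducible factors (HIF).

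The windows upstream of a RefSeq transcription start are shown for 3 members, VEGFB, VEGFC and NRP2. VEGFB was higher in hypoxia and lower with TGF-β1, and VEGFC was higher with TGF-β1 and lower with BAY. NRP2 was higher with TGF-β1, with BAY and in hypoxia. They are the 250 bases before the RefSeq start on GRCh38.p14, at chr11:64234334-64234583 (plus strand), chr4:176792923-176793172 (minus strand) and chr2:205682251-205682500 (plus strand), each written 5′ to 3′ along the gene. Capitals mark every match to a HIF core (ACGTG or GCGTG and their complements CACGT and CACGC), a SMAD element (CAGAC or GTCTG) or a cyclic AMP response half-site (TGACG or CGTCA).
VEGFB: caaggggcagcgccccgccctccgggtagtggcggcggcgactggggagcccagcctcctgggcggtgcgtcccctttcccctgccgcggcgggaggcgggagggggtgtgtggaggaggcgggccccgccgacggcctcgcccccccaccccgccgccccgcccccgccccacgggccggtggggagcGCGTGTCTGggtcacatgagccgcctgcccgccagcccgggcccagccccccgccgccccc
VEGFC: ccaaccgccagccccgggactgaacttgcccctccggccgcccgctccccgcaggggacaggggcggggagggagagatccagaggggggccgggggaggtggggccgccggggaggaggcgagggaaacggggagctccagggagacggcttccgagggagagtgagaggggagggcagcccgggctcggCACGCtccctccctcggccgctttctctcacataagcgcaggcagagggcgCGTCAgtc
NRP2: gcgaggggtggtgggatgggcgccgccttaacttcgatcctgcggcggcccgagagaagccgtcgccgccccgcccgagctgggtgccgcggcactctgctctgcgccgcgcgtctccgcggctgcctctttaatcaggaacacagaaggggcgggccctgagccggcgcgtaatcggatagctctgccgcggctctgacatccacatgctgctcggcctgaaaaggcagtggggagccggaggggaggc

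The VEGFB window held 1 HIF core and 1 SMAD element, which overlap by a shared G, the VEGFC window held 1 HIF core and 1 half-site, and the NRP2 window held none of these letters. Among 35116 RefSeq windows of the same length, 43.2% held a HIF core, 38% a SMAD element and 21.2% a half-site. Of the windows not shown, PGF, which fell in hypoxia, held 1 HIF core and 2 SMAD elements in the window from 74955598. Its window from 74955765 held 0 HIF cores, 1 SMAD element and 2 half-sites. The FLT1 window held 1 HIF core and 2 half-sites, and the KDR and VEGFD windows held none of these letters. The matches are a description of these windows and mark no binding site. Whether they relate to the responses was not tested. The RefSeq table held 7 of the 10 members and not VEGFA, FLT4 or NRP1.

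Libraries held between 78862372 and 105571090 counts. In hypoxia with solvent, 6 standard hypoxia genes all rose over normoxia with solvent, among them CA9, a carbonic anhydrase, by 6.94 on the log2 scale (adjusted p = 3.84e-14, edgeR). Of 13 proximal tubule markers, 7 averaged at least 1 CPM (counts per 1000000 counts of the library), led by CDH6 at 971 and DPP4 at 479 CPM, while LRP2 stood at 0.151 CPM and SLC22A6 had no count in any library. Of 12 endothelial markers only EGFL7 (36.4 CPM) and ERG (1.67 CPM) averaged at least 1 CPM, CLDN5 had no count in any library, and CDH5, EMCN, PECAM1 and VWF were each below 0.04 CPM. The summed endothelial markers ran from 45.2 to 47.5 CPM in hypoxia with BAY, 43 to 52.1 in hypoxia with solvent, 34 to 39.7 with TGF-β1 and BAY, 32.2 to 43 with TGF-β1, 31.6 to 35.2 in normoxia with BAY and 31.3 to 42.7 in normoxia with solvent. Most of each sum is EGFL7, so the sums mainly give the level of that gene. Of the lymphatic markers, LYVE1 and PDPN had no count and PROX1 averaged 0.902 CPM.

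Within 3 groups, libraries fell into 2 sets by their distance over all expressed genes, a split seen in the data and not named in the labels. Set 1 holds TGF-β1 with BAY replicates 1 and 2, TGF-β1 replicates 1 and 2, and normoxic solvent replicates 1, 2 and 5. Set 2 holds replicates 3, 4 and 5 of TGF-β1 with BAY and of TGF-β1, and normoxic solvent replicates 3 and 4. The root mean square log2 distance ran from 0.167 to 0.227 within sets and from 0.23 to 0.318 between them. Libraries of hypoxia and of normoxia with BAY were not assigned to a set and were kept in the fits by set. Deviations of single libraries from their group mean over 12146 genes correlated between the 3 groups from 0.07 to 0.56 in the same set and from -0.50 to -0.03 in different sets, given as a description. The sets were drawn from the data so that libraries within them lie close together, which makes the spread within a set small and the p-values within sets too low. This limit holds for every p-value below that is given for a single set. VEGFA was higher in set 1 in each of the 3 groups. NRP1 differed between the sets with TGF-β1 and in normoxia with solvent, while with TGF-β1 and BAY all 5 libraries had 121 to 123 CPM.

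All 10 members differed widely in level. NRP2 averaged 168, NRP1 139, VEGFA 94.6, VEGFB 64.1, VEGFC 34.1, PGF 13.8 and FLT4 12.9 CPM over the 24 libraries. VEGFD averaged 0.0942 CPM on 214 counts in all, FLT1 had 10 counts in all with 19 of 24 libraries at 0, and KDR had 4 counts with 21 libraries at 0. A library without a count allows at most 0.038 CPM (3 counts, counting error only). FLT4 was thus the only VEGF receptor tyrosine kinase measured above that limit in every library, and both main receptors of VEGFA were at or near the detection limit throughout.

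On a scale per kb of gene length the order depends on the length used. Over the union of exons VEGFB stood first at 41.5 ± 13 CPM per kb (SD over 24 libraries), VEGFC had 14.1, NRP2 12.1, NRP1 12.1 and VEGFA 6.56 CPM per kb. Over the longest coding transcript VEGFB had 46.4, VEGFA 26.8, NRP2 25.2, NRP1 23.7 and VEGFC 16.5 CPM per kb. PGF, FLT4, VEGFD, FLT1 and KDR followed in this order under all 3 lengths tried. FLT4 had 1.45 CPM per kb of its exons, FLT1 0.000345 and KDR 0.000285 CPM per kb.

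Differences were tested by edgeR's quasi-likelihood test with Benjamini-Hochberg adjustment over all genes of the fit, and rose and fell are used of genes past an adjusted p of 0.05. Each log2 fold change has an approximate standard error (SE). FLT1 and KDR did not pass the filter on low counts, so 8 of 10 members were tested. In hypoxia 4 members rose and 3 fell, while 60.8% of all genes tested were called, 29.2% higher and 31.6% lower. With BAY in normoxia 2 rose and 3 fell (43.9% of all genes called, 20.6% higher and 23.3% lower). With BAY in hypoxia 3 rose and 1 fell (37.9% of all genes called, 16.5% higher and 21.4% lower). With TGF-β1 alone 2 rose and 3 fell (62% of all genes called, 29.5% higher and 32.5% lower). With BAY on top of TGF-β1 3 rose and 4 fell (29.5% of all genes called, 13.9% higher and 15.6% lower). The 2 groups did not overlap in CPM for 7 of the 8 members in hypoxia (57.2% of all genes tested), 5 with BAY in normoxia (45%), 4 with BAY in hypoxia (48.7%), 4 with TGF-β1 (50.8%) and 5 with BAY on TGF-β1 (22.1%). The median log2 fold change of the 8 members was 0.29 in hypoxia, 0.07 with BAY in normoxia, 0.10 with BAY in hypoxia, -0.14 with TGF-β1 and 0.15 with BAY on TGF-β1. Over all genes tested it was -0.02, 0.00, -0.02, -0.04 and 0.01 in the same order. The treatments moved a large share of all genes, so that a call alone sets no member apart, and the size and direction of each change are given below. In bulk RNA, fewer cells that express a gene and less RNA per cell cannot be told apart. The comparisons of hypoxia, of BAY in normoxia and of TGF-β1 share the normoxic solvent libraries as their control.

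**Figure D1:**
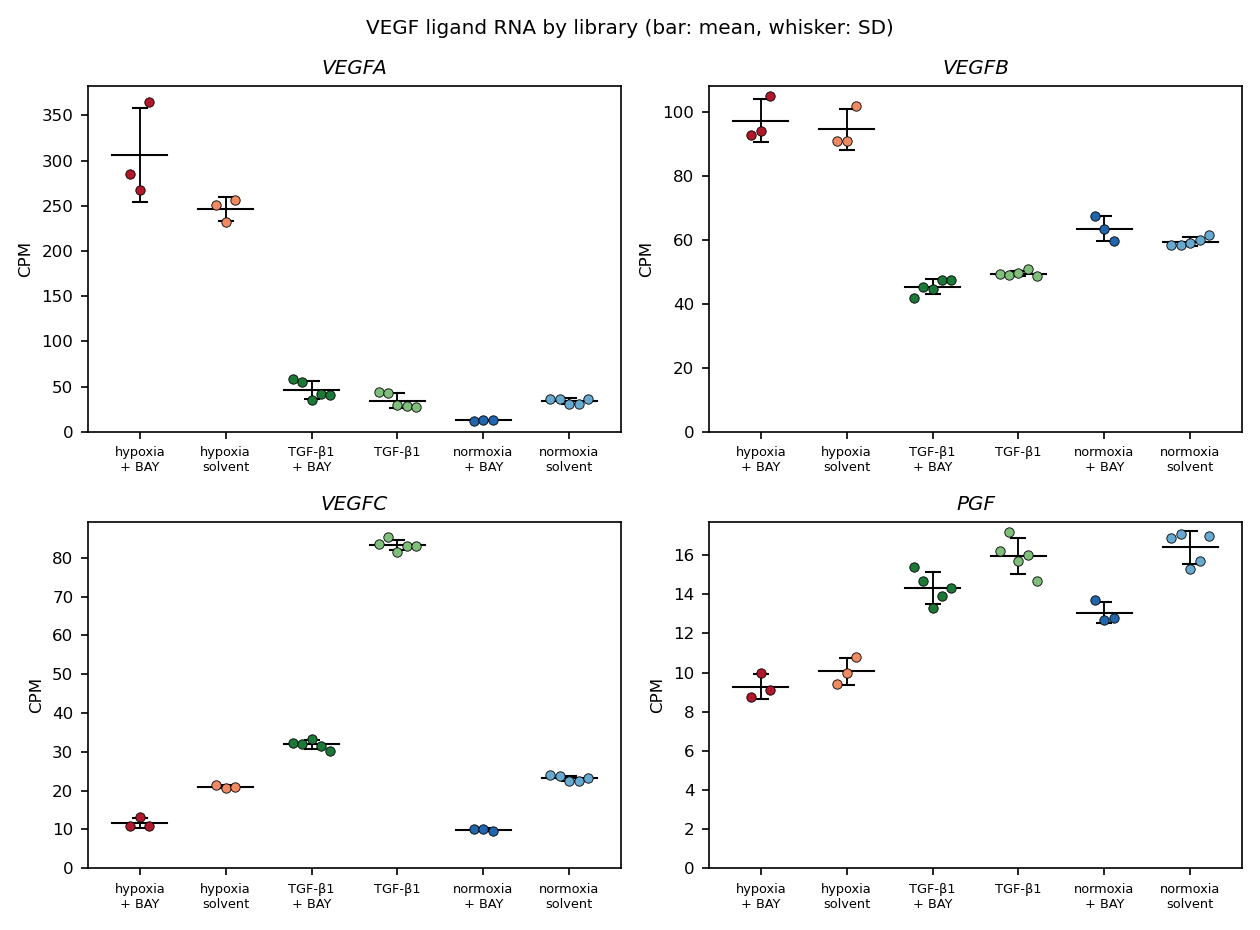
CPM of 4 VEGF ligands in each of 24 libraries (points), with the group mean (bar) and SD (whisker), on linear axes that start at 0. VEGFA stands highest in both hypoxic groups and lowest in normoxia with BAY, while VEGFC stands highest with TGF-β1 alone and is lower in each BAY group than in the matching group without BAY.

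VEGFA (ENSG00000112715, chromosome 6, 43770184 to 43786487, plus strand, GENCODE 29 on GRCh38) ranged 24.3-fold between its highest and lowest group mean. The libraries had 251, 232 and 257 CPM in hypoxia with solvent, against 36.7, 36.2, 30.4, 30.3 and 35.9 CPM in normoxia with solvent, so every hypoxic value lay far above every normoxic one. VEGFA rose 7.29-fold in hypoxia (log2 fold change 2.87, SE 0.0894, adjusted p = 7.24e-12).

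BAY had the opposite sign on VEGFA in normoxia and in the other 2 settings. In normoxia VEGFA had 12.2, 13 and 12.7 CPM with BAY, against the 30.3 to 36.7 CPM of solvent cells, and it fell by 1.41 on the log2 scale (SE 0.0996, adjusted p = 8.55e-08). In hypoxia VEGFA had 285, 268 and 365 CPM with BAY, against 251, 232 and 257 CPM with solvent. The groups did not overlap, 1 BAY library lay well above the other two, and the log2 fold change was 0.31 (SE 0.0993, adjusted p = 0.0254). This rise rests on few libraries. Without replicate 3 of hypoxia with BAY the log2 fold change was 0.16 (adjusted p = 0.102), without replicate 1 or 2 of hypoxia with solvent it was 0.32 or 0.26 (adjusted p = 0.0548 and 0.0977), with the replicate number as a block it was 0.30 (adjusted p = 0.0543), and in a joint fit of all 24 libraries it was 0.31 (adjusted p = 0.21). With the block in a fit of the 2 groups alone the log2 fold change was 0.32 (adjusted p = 0.00527).

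With TGF-β1 alone VEGFA had 44.6, 42.5, 29.6, 28.4 and 27.6 CPM, a wider spread than in normoxia with solvent that follows the 2 sets. The pooled log2 fold change over normoxia with solvent was 0.03 (SE 0.152, adjusted p = 0.897). Within set 1 VEGFA was higher with TGF-β1 (43.5 against 36.3 CPM, log2 fold change 0.30, adjusted p = 9.88e-06), and within set 2 it was 28.5 against 30.4 CPM (log2 fold change -0.08, adjusted p = 0.243). Pooled and within-set values thus differ for this comparison, and the within-set p-values are too low.

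With TGF-β1 and BAY together VEGFA had 58.1, 54.6, 35.7, 42.2 and 40.9 CPM, and these values overlapped those with TGF-β1 alone. VEGFA rose by a pooled log2 fold change of 0.42 (SE 0.152, adjusted p = 0.046), a call that was lost in 16 of 27 alternatives, for example at adjusted p = 0.0577 with the scaling of DESeq2. Within each set the groups did not overlap. The means were 56.4 CPM with TGF-β1 and BAY against 43.5 CPM with TGF-β1 in set 1 (log2 fold change 0.36, adjusted p = 1.79e-05) and 39.6 against 28.5 CPM in set 2 (0.47, adjusted p = 8.27e-06). Since the sets were drawn from these same libraries, the within-set p-values are too low and do not make the pooled call firmer. With the replicate number as a block the log2 fold change was 0.43 (adjusted p = 0.00646).

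**Figure D2:**
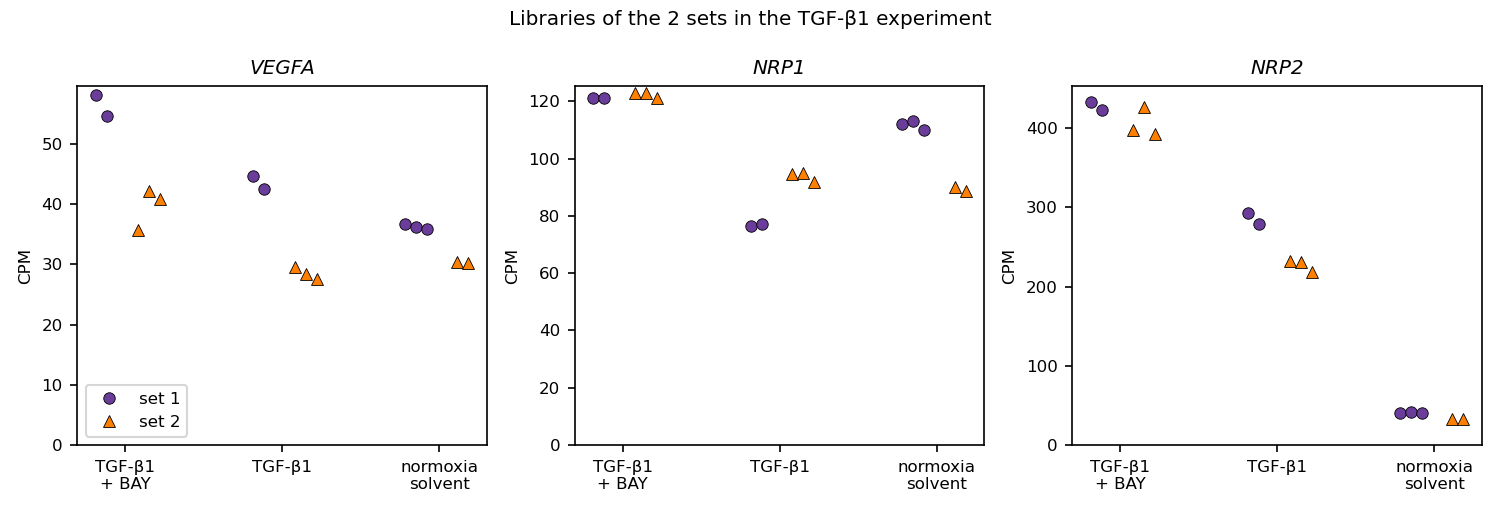
CPM of VEGFA, NRP1 and NRP2 in each library of the groups TGF-β1 with BAY, TGF-β1 and normoxia with solvent, with circles for set 1 and triangles for set 2, on linear axes that start at 0. VEGFA is higher in set 1 in each of the 3 groups, and NRP1 with TGF-β1 alone is lower than normoxia with solvent in set 1 (76.5 and 77.2 against 110 to 113 CPM) but not in set 2.

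VEGFC (ENSG00000150630, chromosome 4, 176683538 to 176792727, minus strand) was the ligand that TGF-β1 changed most. It had 83.5, 85.3, 81.6, 83 and 83 CPM with TGF-β1, against 24, 23.7, 22.5, 22.5 and 23.2 CPM in normoxia with solvent. The groups lay far apart and each was narrow, and VEGFC rose 3.59-fold (log2 fold change 1.84, SE 0.0313, adjusted p = 1.27e-18), by 1.88 within set 1 and 1.88 within set 2.

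VEGFC fell with BAY in all 3 settings. With TGF-β1 and BAY the libraries had 32.4, 32.1, 33.4, 31.5 and 30.1 CPM, all below the 81.6 CPM of the lowest TGF-β1 library, and VEGFC fell by 1.38 on the log2 scale (SE 0.0308, adjusted p = 3.01e-15). The level with TGF-β1 and BAY lay above that of normoxia with solvent, whose highest library had 24 CPM. In normoxia VEGFC averaged 9.94 ± 0.358 CPM with BAY and 23.2 ± 0.693 CPM with solvent (SD, n = 3 and 5) and fell by 1.20 (adjusted p = 3.64e-10, edgeR). In hypoxia it had 10.9, 13.1 and 10.8 CPM with BAY, against 21.5, 20.6 and 21 CPM with solvent, and fell by 0.86 (adjusted p = 4.96e-08). These 3 falls were called in every alternative run. Hypoxia itself moved VEGFC little, with 21 ± 0.465 CPM in hypoxia with solvent and 23.2 ± 0.693 CPM in normoxia with solvent (SD, n = 3 and 5). The fall of 0.14 on the log2 scale (adjusted p = 0.0445, edgeR) lost its call in 18 of 22 alternatives, among them the solvent libraries of set 1 alone (log2 fold change -0.15, adjusted p = 0.0573) and of set 2 alone (-0.08, adjusted p = 0.385).

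VEGFB (ENSG00000173511, chromosome 11, 64234538 to 64238793, plus strand) moved less. It had 90.9, 90.8 and 102 CPM in hypoxia with solvent, against 58.3 to 61.6 CPM in normoxia with solvent, and rose by a log2 fold change of 0.67 (SE 0.0517, adjusted p = 1.51e-08). With TGF-β1 it had 48.8 to 50.8 CPM, below every solvent library, and fell by 0.27 (adjusted p = 3.37e-06). BAY on top of TGF-β1 gave 41.9 to 47.6 CPM and a further fall of 0.12 (adjusted p = 0.0144), which was not called within set 2 (log2 fold change -0.10, adjusted p = 0.0901). The log2 fold changes with BAY were 0.11 in normoxia (SE 0.0525, adjusted p = 0.0923) and 0.04 in hypoxia (SE 0.0585, adjusted p = 0.681), neither of them called.

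PGF (ENSG00000119630, chromosome 14, 74941834 to 74955784, minus strand), placental growth factor, went the other way from VEGFA and VEGFB in hypoxia. It had 9.4, 10 and 10.8 CPM in hypoxia with solvent, against 15.3 to 17.1 CPM in normoxia with solvent, and fell by 0.70 on the log2 scale (SE 0.0617, adjusted p = 7.14e-08). With BAY in normoxia it had 12.7 to 13.7 CPM, below every solvent library, and fell by 0.31 (adjusted p = 0.000706). With TGF-β1 and BAY it had 13.3 to 15.4 CPM against 14.7 to 17.2 CPM with TGF-β1 alone, overlapping groups with a fall of 0.16 (adjusted p = 0.0253) that lost its call in 6 of 27 alternatives. PGF was not called with TGF-β1 alone (log2 fold change -0.04, adjusted p = 0.515) or with BAY in hypoxia (-0.12, adjusted p = 0.179).

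VEGFD (ENSG00000165197, chromosome X, 15345591 to 15384376, minus strand), the second FLT4 ligand, was near the detection limit. It had 0.0203, 0.0213 and 0.0585 CPM in hypoxia with solvent, against 0.0679 to 0.209 CPM in normoxia with solvent. The log2 fold change of -1.79 (SE 0.683, adjusted p = 0.033) rests on few counts per library and lost its call in 6 of 22 alternatives, one of them with set 2 of the solvent libraries (-1.52, adjusted p = 0.139). No other comparison called VEGFD.

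**Figure D3:**
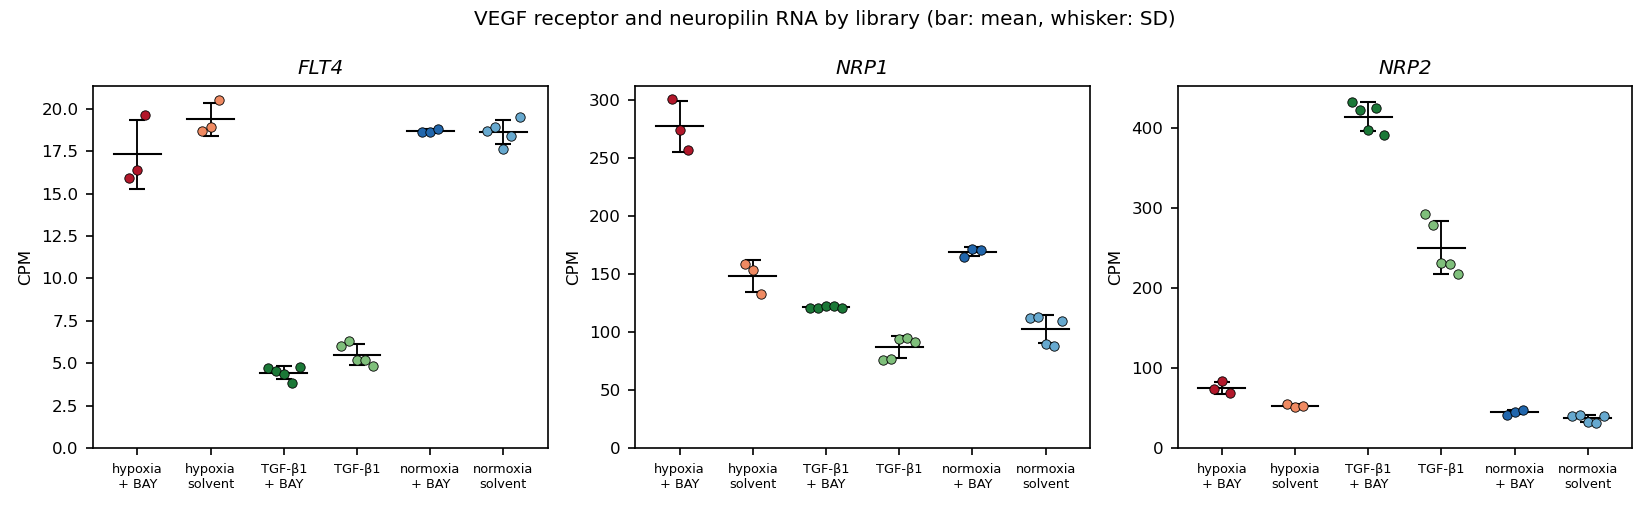
CPM of FLT4, NRP1 and NRP2 in each of 24 libraries (points), with the group mean (bar) and SD (whisker), on linear axes that start at 0. FLT4 stands lowest and NRP2 highest in both TGF-β1 groups, and NRP1 is higher with BAY than without in hypoxia, with TGF-β1 and in normoxia.

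FLT4 (ENSG00000037280, chromosome 5, 180601506 to 180649624, minus strand), the receptor for VEGFC, fell with TGF-β1 while its ligand rose. It had 6, 6.29, 5.21, 5.22 and 4.83 CPM with TGF-β1, against 18.7, 18.9, 17.6, 18.4 and 19.5 CPM in normoxia with solvent. The groups lay far apart, and FLT4 fell by 1.76 on the log2 scale (SE 0.0706, adjusted p = 1.53e-13), with log2 fold changes of -1.59 within set 1 and -1.82 within set 2. With TGF-β1 and BAY it had 3.85 to 4.77 CPM, below every library with TGF-β1 alone, and fell by a further 0.31 (SE 0.0706, adjusted p = 0.00276).

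Oxygen and BAY alone left FLT4 near its level in solvent cells. It averaged 19.4 ± 1.02 CPM in hypoxia with solvent (n = 3), 18.7 ± 0.108 CPM in normoxia with BAY (n = 3) and 18.6 ± 0.717 CPM in normoxia with solvent (SD, n = 5). The log2 fold change was 0.06 in hypoxia (SE 0.061, adjusted p = 0.435) and 0.02 with BAY in normoxia (SE 0.0609, adjusted p = 0.777). With BAY in hypoxia FLT4 had 15.9, 16.4 and 19.6 CPM, against 18.7, 18.9 and 20.5 CPM with solvent. The groups overlapped through replicate 3 of hypoxia with BAY, with a log2 fold change of -0.17 (adjusted p = 0.0658), and without that library it was -0.27 (adjusted p = 0.00145).

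NRP1 (ENSG00000099250, chromosome 10, 33177492 to 33336262, minus strand) rose with BAY in every setting. In hypoxia it had 301, 274 and 257 CPM with BAY, against 159, 154 and 133 CPM with solvent (log2 fold change 0.90, SE 0.0929, adjusted p = 3.78e-06). With TGF-β1 it had 121 to 123 CPM with BAY, against 76.5, 77.2, 94.6, 95 and 91.8 CPM without (0.48, SE 0.0743, adjusted p = 7.07e-05). In normoxia it had 165, 172 and 171 CPM with BAY, against 112, 113, 90.2, 88.5 and 110 CPM with solvent (0.74, SE 0.0814, adjusted p = 4.94e-06). In none of these comparisons did the groups overlap, and all 3 rises were called in every alternative.

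Hypoxia raised NRP1 as well, by a log2 fold change of 0.54 (SE 0.0818, adjusted p = 5.01e-05), without overlap between the groups. TGF-β1 alone gave a pooled log2 fold change of -0.24 (SE 0.0742, adjusted p = 0.00929) with overlapping groups, and the 2 sets disagreed. In set 1 NRP1 had 76.5 and 77.2 CPM with TGF-β1 against 110 to 113 CPM with solvent, with a log2 fold change of -0.50 (adjusted p = 2.85e-09). In set 2 it had 91.8 to 95 CPM with TGF-β1 against 88.5 and 90.2 CPM with solvent, with a log2 fold change of 0.08 (adjusted p = 0.0324). The pooled value for NRP1 with TGF-β1 thus averages over 2 sets whose values have opposite signs. The within-set p-values are too low, and the value in set 2 is small.

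NRP2 (ENSG00000118257, chromosome 2, 205681990 to 205798133, plus strand), the co-receptor best known as a partner of FLT4, had the largest response of all members to TGF-β1. It had 293, 279, 232, 231 and 218 CPM with TGF-β1, against 41, 41.2, 32.4, 32.2 and 40.2 CPM in normoxia with solvent, and rose 6.7-fold (log2 fold change 2.74, SE 0.0932, adjusted p = 3.90e-14). Set 1 was the higher in both groups, and the log2 fold change was 2.85 within set 1 and 2.82 within set 2.

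BAY raised NRP2 further. With TGF-β1 and BAY it had 433, 423, 398, 426 and 392 CPM, above every library with TGF-β1 alone (log2 fold change 0.73, SE 0.0869, adjusted p = 5.48e-06). In hypoxia it had 74.3, 83.9 and 69.2 CPM with BAY, against 55.8, 51.7 and 53.1 CPM with solvent (0.50, SE 0.0941, adjusted p = 0.000776). Hypoxia alone raised NRP2 by a log2 fold change of 0.52 (SE 0.0836, adjusted p = 8.16e-05). In normoxia it had 42.2, 45.3 and 47.7 CPM with BAY, against 32.2 to 41.2 CPM with solvent (0.29, SE 0.084, adjusted p = 0.0122). That smallest rise was called against set 2 of the solvent libraries alone (0.49, adjusted p = 0.000188), and was not called against set 1 alone (0.15, adjusted p = 0.0549) nor without replicate 2 or 3 of normoxia with BAY (0.28 and 0.24, adjusted p = 0.0647 and 0.1).

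**Figure D4:**
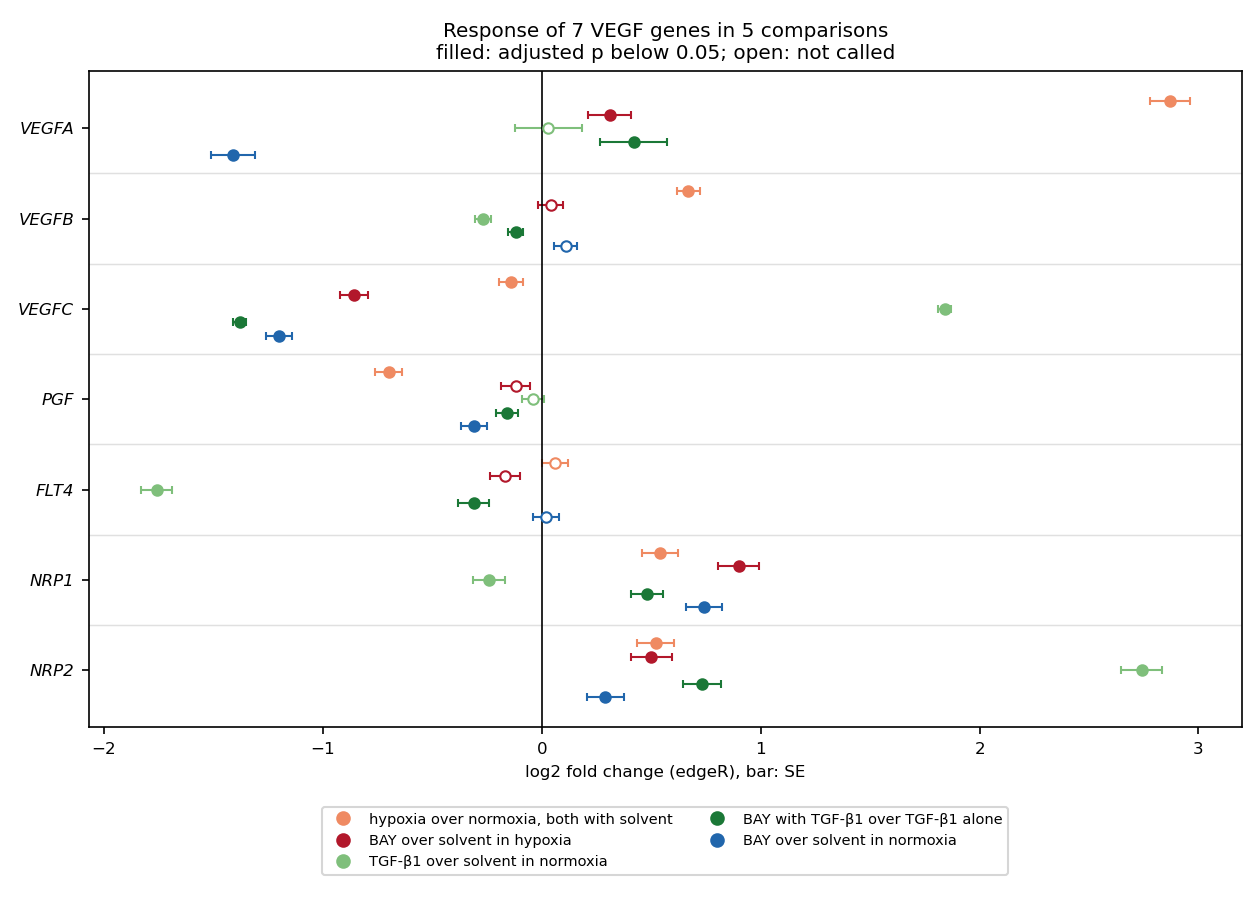
log2 fold change (x axis) with its SE for 7 members (rows) in 5 comparisons (colours), filled where the adjusted p is below 0.05 and open where it is not. VEGFC lies left of 0 and NRP1 and NRP2 lie right of 0 in all 3 BAY comparisons, while VEGFA lies left of 0 with BAY in normoxia and right of 0 with BAY in hypoxia and on TGF-β1.

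Whether the BAY response depended on oxygen or on TGF-β1 was tested as an interaction, the BAY difference under the stress minus that in normoxia. Both interactions share the normoxic libraries with and without BAY. For oxygen 2 of 8 members were called, both higher (16.8% of all genes called, 8.83% higher and 7.92% lower). They were VEGFA, at 1.71 (SE 0.14, adjusted p = 3.82e-06), and VEGFC, at 0.34 (SE 0.0853, adjusted p = 0.0136), which fell less with BAY in hypoxia than in normoxia. The VEGFC interaction was not called with set 2 of the solvent libraries (0.32, adjusted p = 0.0509). With set 1 of the solvent libraries NRP1 and NRP2 were called too, at 0.30 (adjusted p = 0.0253) and 0.36 (adjusted p = 0.00713). With set 2 of the solvent libraries they had -0.02 (adjusted p = 0.953) and 0.03 (adjusted p = 0.908).

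For TGF-β1, 2 members were called higher and 3 lower (20.7% of all genes called, 13.7% higher and 7.08% lower). VEGFA had an interaction of 1.85 (SE 0.24, adjusted p = 3.21e-05) and NRP2 one of 0.45 (SE 0.135, adjusted p = 0.0224), and the NRP2 interaction was not called without a filter on low counts or without replicate 1 of normoxia with BAY (adjusted p = 0.0673 and 0.0696). VEGFB, VEGFC and FLT4 had interactions of -0.22, -0.17 and -0.31 (adjusted p = 0.00719, 0.0178 and 0.0417). That of FLT4 lost its call in 14 of 26 alternatives (-0.29 with set 2 of the assigned libraries, adjusted p = 0.0608) and that of VEGFC in 3 of 26. The NRP1 interaction of -0.24 (adjusted p = 0.15) was 0.00 with set 1 of the assigned libraries and -0.54 with set 2 (adjusted p = 0.972 and 9.26e-08). The same unassigned libraries of normoxia with BAY enter both values, so neither is a value within a set. Both VEGFA interactions were called in every alternative run, from 1.57 to 1.84 for oxygen and from 1.74 to 1.96 for TGF-β1.

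**Figure D5:**
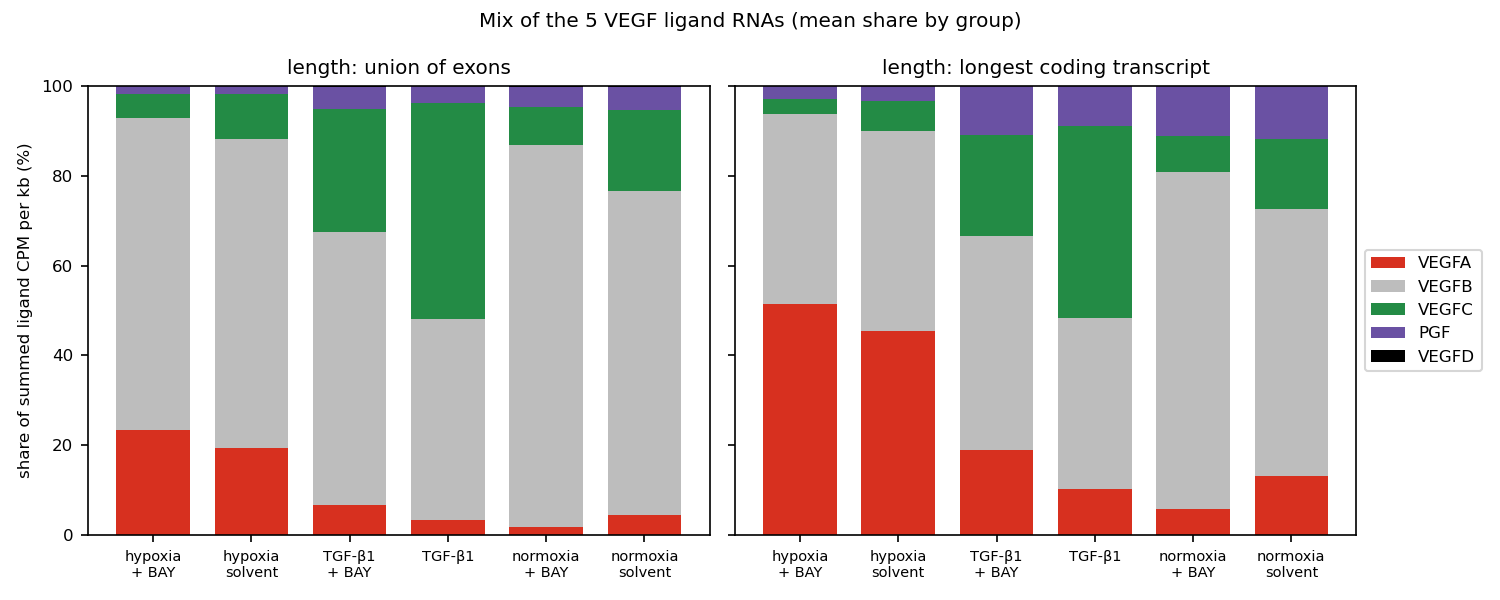
Mean share of each ligand in the summed CPM per kb of the 5 VEGF ligands (y axis, %) in the 6 groups, with gene length taken as the union of exons (left) or as the longest coding transcript (right). The VEGFA share is larger on the right in every group, and under both lengths VEGFA takes its largest share in hypoxia and VEGFC its largest share with TGF-β1 alone.

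The mix of ligand RNAs shifted between groups. Per kb of the union of exons, VEGFA made up 19.3% ± 0.673 of the ligand sum in hypoxia with solvent (SD, n = 3), 1.81% ± 0.149 in normoxia with BAY (SD, n = 3) and 4.41% ± 0.38 in normoxia with solvent (SD, n = 5). VEGFC made up 27.3% ± 1.36 with TGF-β1 and BAY, 48.1% ± 0.477 with TGF-β1 and 18% ± 0.54 in normoxia with solvent (SD, n = 5 each). With the longest coding transcript as length the VEGFA shares became 45.4%, 5.84% and 13.2%, so the size of a share depends on the length while the order of these groups does not. VEGFD made up at most 0.156% of the sum in any group mean over the union of exons.

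Genes that act with these ligands and receptors were followed in 5 lists. Class 3 semaphorins and plexins, the other partners of neuropilins, changed in both directions. Of 12 listed genes 10 were tested in the hypoxia experiment, of which 3 rose and 5 fell in hypoxia (median log2 fold change -0.35), 3 rose and 5 fell with BAY in normoxia (median -0.32), and 4 rose and 3 fell with BAY in hypoxia (median 0.08). All 12 were tested in the TGF-β1 experiment, where 5 rose and 5 fell with TGF-β1 (median 0.01) and 5 rose and 2 fell with BAY on top of it (median 0.19). In all 5 lists the shares and medians stand beside those of all genes given above. Percentages in brackets in the lists below are the shares of all genes tested that rose and fell. SEMA3C, a ligand of both neuropilins, averaged 507 ± 37.9 CPM with TGF-β1 and 73.9 ± 8.49 CPM in normoxia with solvent (SD, n = 5 each), a log2 fold change of 2.78 (adjusted p = 6.54e-15, edgeR). SEMA3B rose in hypoxia (log2 fold change 1.01), with BAY in hypoxia (0.69) and with BAY on TGF-β1 (1.30), and fell by 0.81 with TGF-β1.

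Among 31 tested genes of VEGF receptor signalling, 18 rose and 2 fell with TGF-β1 (29.5% and 32.5%). The median log2 fold change was 0.15 against -0.04 over all genes tested. With BAY 2 rose and 17 fell in normoxia (median -0.14 against 0.00, 20.6% and 23.3%). On TGF-β1 3 rose and 14 fell with BAY (median -0.05 against 0.01, 13.9% and 15.6%). In hypoxia 11 rose and 12 fell (median 0.04, 29.2% and 31.6%), and with BAY in hypoxia 5 rose and 10 fell (median -0.07, 16.5% and 21.4%). SPHK1, the kinase that makes sphingosine 1-phosphate, averaged 81 ± 3.05 CPM with TGF-β1 and 18.7 ± 2.12 CPM in normoxia with solvent (SD, n = 5 each), a log2 fold change of 2.11 (adjusted p = 7.03e-15, edgeR). HSPB1, a small heat shock protein that acts downstream of p38 kinase, fell with BAY in normoxia, in hypoxia and on TGF-β1, with log2 fold changes of -0.96, -0.69 and -0.56. SHB, an adaptor of KDR, rose by 1.44 in hypoxia and by a further 0.83 with BAY in hypoxia. The list holds kinases and adaptors that many receptors share, and KDR and FLT1 themselves had hardly any counts.

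Of 17 tested genes that process or capture VEGF ligands, 2 rose and 12 fell with BAY in normoxia (median -0.49, 20.6% and 23.3%). With BAY in hypoxia 2 rose and 9 fell (median -0.33, 16.5% and 21.4%). With BAY on TGF-β1 2 rose and 8 fell (median -0.24, 13.9% and 15.6%). In hypoxia 4 rose and 10 fell (median -0.57, 29.2% and 31.6%), and with TGF-β1 5 rose and 7 fell (median -0.08, 29.5% and 32.5%). FURIN, a proprotein convertase that cleaves VEGFC, averaged 319 ± 23.9 CPM with TGF-β1 and 64.9 ± 6.05 CPM in normoxia with solvent (SD, n = 5 each; log2 fold change 2.29, adjusted p = 5.78e-15, edgeR). GPC1, a heparan sulfate proteoglycan that binds VEGFA, rose by 2.07 with TGF-β1. PLAU, the urokinase that frees matrix-bound growth factors through plasmin, fell in all 5 comparisons, with log2 fold changes of -1.09 in hypoxia, -1.96 with TGF-β1, -1.55 with BAY in normoxia, -0.68 with BAY in hypoxia and -0.96 with BAY on TGF-β1. THBS2, an inhibitor of angiogenesis, fell with BAY in normoxia and in hypoxia, with log2 fold changes of -1.94 and -1.19.

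Of 21 regulators of VEGFA expression, 8 rose and 10 fell in hypoxia (median 0.09, 29.2% and 31.6%). The rises were led by EGLN3 (log2 fold change 3.21) and EGLN1 (1.66), the oxygen sensors that mark HIF for degradation. With BAY 2 rose and 12 fell in normoxia (median -0.24, 20.6% and 23.3%), and 6 rose and 7 fell in hypoxia (median 0.07, 16.5% and 21.4%). On TGF-β1 4 rose and 4 fell with BAY (median 0.00, 13.9% and 15.6%). With TGF-β1 4 rose and 9 fell (median -0.03, 29.5% and 32.5%). EPAS1, which encodes HIF-2α, averaged 945 ± 25.1 CPM in hypoxia with BAY and 412 ± 17.2 CPM in hypoxia with solvent (SD, n = 3 each; log2 fold change 1.19, adjusted p = 5.49e-11, edgeR), with an oxygen by BAY interaction of 1.15 (adjusted p = 1.56e-08). ZFP36, which destabilises AU-rich mRNAs such as that of VEGFA, rose by 1.79 with BAY in hypoxia. HIF1A had an oxygen by BAY interaction of 0.54 (adjusted p = 0.00504) and a TGF-β1 by BAY interaction of 0.48 (adjusted p = 0.0139).

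Of 28 other angiogenic factors 20 were tested in the hypoxia experiment, and 13 rose and 6 fell in hypoxia (median 0.33, 29.2% and 31.6%). Among the rises were ADM, the vasodilator adrenomedullin, at 4.36 and APLN, the peptide apelin, at 3.87. With BAY 8 rose and 9 fell in normoxia (median -0.08, 20.6% and 23.3%), and 6 rose and 9 fell in hypoxia (median -0.22, 16.5% and 21.4%). Of 22 tested in the TGF-β1 experiment, 10 rose and 6 fell with TGF-β1 (median 0.19, 29.5% and 32.5%). With BAY on it 7 rose and 2 fell (median 0.08, 13.9% and 15.6%). The BAY response of CXCL8, the chemokine interleukin 8, also differed between settings. CXCL8 averaged 22.5 ± 1.36 CPM in normoxia with BAY and 88.7 ± 7.3 CPM in normoxia with solvent (SD, n = 3 and 5; log2 fold change -1.96, adjusted p = 2.12e-12, edgeR), and its interactions were 1.62 with oxygen and 2.27 with TGF-β1. EFNB2, the ligand ephrin B2, rose by 1.18 with TGF-β1 and by a further 1.00 with BAY on it, and JAG1, a Notch ligand, averaged 2788 ± 100 CPM with TGF-β1 and 595 ± 33.9 CPM in normoxia with solvent (SD, n = 5 each).

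Likeness of pattern was measured as the root mean square difference of the 6 log2 group means, each gene centred on its own mean, among 11008 named genes that averaged at least 5 CPM over the 24 libraries, whatever their level in a single group. The genes closest to VEGFA were SLC2A3, a glucose transporter (0.29), PFKFB4, a regulator of glycolysis (0.37), and EGLN3 (0.44). Among the genes closest to VEGFC were MARCHF3 (0.23) and FRMD6 (0.23). FLT4 lay nearest to BAIAP2L2 (0.03), OGDHL (0.08) and the acid ceramidase gene ASAH1 (0.08), and VEGFB to HEMK1 (0.04), GHDC (0.04) and LRRC23 (0.05). NRP1 lay nearest to IL4R (0.10), ARID5B (0.12) and WARS2 (0.13), and NRP2 to CHST11 (0.17), DMBX1 (0.20) and HS3ST3A1 (0.22).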

How the data were processed

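The values deposited by the authors are estimated counts for each Ensembl gene in 24 libraries, and 48.6% of those above 0 are fractional. The submitters' processing notes name Salmon, DESeq2 and GRCh38 (hg38). Versions, annotation release and strand setting: not given in the sources used here. Hence reads of overlapping antisense genes may not be separated. The largest count assigned to such a gene was 308, against 309547 for NRP1, and antisense reads counted under a member itself would not show in it. Salmon shares reads among similar sequences. Values were rounded before testing. Symbols were matched by Ensembl ID (58919 of 65180). All 39 replicate pairs differed by more than sampling noise (chi-square per degree of freedom 5.46 to 48.1).

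In edgeR 4.0.16 (R 4.3.3), 14 libraries of the hypoxia experiment and 18 of the TGF-β1 experiment were fitted with TMM scaling and filterByExpr (21316 and 21639 genes), and 7 comparisons were tested, 2-sided. Both fits contain the 8 libraries of normoxia with BAY or solvent. Adjusted p-values are Benjamini-Hochberg values over all genes of a fit. The SE was derived as the size of the log2 fold change over the root of its F statistic. Levels are CPM scaled by TMM over 24 libraries. The script was tested on simulated data.

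Members, gene lists and tests were chosen with earlier results of these data known. From each list and comparison at most 3 called genes with the largest change and at least 1 CPM in either group could be named. Replicate numbers paired the libraries of BAY in hypoxia (correlation of deviations 0.18 to 0.24 in 3 pairs), where 3 of 3 were closest to their own number. For BAY on TGF-β1 the correlation was 0.24 to 0.56 in 5 pairs, with 3 of 5 closest to their own number. Equal numbers there also fall in the same set, so pairing by number within a set is not shown. In the other comparisons the numbers did not pair the libraries. The replicate block, DESeq2 1.42.0, limma 3.58.1 voom, other scaling, no filter, a joint fit and leaving out each library were the alternatives run. Those by library set, the block in a fit of 2 groups alone and the longest coding transcript were chosen after seeing the data. One gene that the likeness rule would name is not reported here.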

Additional observations from a re-analysis of the deposited data

Results flagged for a closer look

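The responses of 5 members to BAY differed between settings by the test of the difference itself (edgeR, adjusted over all genes of the fit). Of all genes tested, 16.8% were called for oxygen and 20.7% for TGF-β1. No library stood far from the others in the 24 combinations of member and group with 5 libraries that were checked. Groups with 3 libraries, which enter both kinds of difference, were not part of that check. VEGFA, with 12.6 ± 0.425 CPM in normoxia with BAY and 33.9 ± 3.23 CPM in normoxia with solvent (SD, n = 3 and 5), had a BAY response higher by 1.71 in hypoxia and by 1.85 with TGF-β1 than in normoxia. The VEGFC response was higher by 0.34 in hypoxia, and with TGF-β1 the difference was -0.17, so the fall was deeper there. With TGF-β1 the differences were -0.22 for VEGFB, -0.31 for FLT4 and 0.45 for NRP2. The FLT4 difference lost its call in 14 of 26 alternatives, that of VEGFC with TGF-β1 in 3 of 26 and that of NRP2 in 2 of 26. The VEGFC difference with oxygen lost it in 1 of 22, while those of VEGFA and VEGFB kept it in all. The 2 kinds of difference share the normoxic libraries with and without BAY.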

How the results depend on the processing

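Over 56 log2 fold changes of members and 1340 alternatives, 1231 kept direction and side of the threshold, 76 lost the call, 6 gained it and 27 changed sign, mostly in values near 0. The cause was not tested. With set 1 of the assigned libraries, the oxygen by BAY interaction called 4 members, 49 genes of the pathway lists and 5821 of all genes, against 2, 30 and 3571. With set 2 it called 1 member and 3021 of all genes. The TGF-β1 by BAY interaction called 7100 of all genes with set 1, against 4487. The TGF-β1 by BAY interaction called 3 members and 3576 of all genes without a filter on low counts. When each library was left out it called from 2 to 5 members and from 3587 to 4717 of all genes. Signs turned with set 1 for FLT4 with BAY in normoxia (-0.02), PGF with TGF-β1 (0.01) and the NRP1 interaction with TGF-β1 (0.00). They turned with set 2 for VEGFA (-0.08), PGF (0.00) and NRP1 (0.08) with TGF-β1 and for the NRP1 interaction with oxygen (-0.02). VEGFD with BAY in hypoxia was -0.39 in limma voom. Leaving out each library gave -0.02 to 0.09 for VEGFB and -0.40 to 0.79 for VEGFD with BAY in hypoxia, -0.08 to 0.10 for VEGFA with TGF-β1, and -0.90 to 0.29 (oxygen) and -0.37 to 0.22 (TGF-β1) for the VEGFD interactions. With the replicate block VEGFA with BAY in hypoxia (0.30, adjusted p = 0.0543) lost its call, as did VEGFC (-0.15) and VEGFD (-1.31) in hypoxia, where numbers do not pair the libraries, and it changed no other call of a member. The block in a fit of the 2 groups alone kept the call of VEGFA with BAY in hypoxia (0.32, adjusted p = 0.00527) and changed no call of a member tested in it. The ligand shares depend on gene length. With the median transcript length, VEGFA made up 62.1% in hypoxia with solvent, 10.9% in normoxia with BAY and 23.5% in normoxia with solvent, and with the longest coding transcript 45.4%, 5.84% and 13.2%. VEGFC made up 17.4% with TGF-β1 and BAY, 36.5% with TGF-β1 and 12.5% in normoxia with solvent by median transcript length, and 22.4%, 42.8% and 15.5% by longest coding transcript. At this depth VEGFD, FLT1 and KDR were limited by counts.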
